A study of Homo sapiens with 3 samples.

Results

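The genes described here are 29 protein-coding genes of homologous recombination, the Fanconi anaemia pathway and the DNA damage and mismatch machinery that works with them, taken by name from 19856 protein-coding genes annotated on hg19. For each gene, ETS1 peaks were sought in a promoter window, defined by a peak midpoint from 5 kb upstream to 1 kb downstream of the transcription start site (TSS) of its canonical transcript, then in the rest of the gene body, and then within 50 kb of the gene. The peaks came from ETS1 ChIP-Seq in SCC25, an established line of human head and neck squamous cell carcinoma that the labels class as mesenchymal. Of the 3 immunoprecipitations, 2 used the C20 antibody (Santa Cruz) and 1 used the 501A antibody (Bethyl Labs), with no treatment named, and every value therefore describes a single cell line. The 3 samples were merged by their authors into 1 consensus list of 26970 peaks with a start and an end each, so no level per sample, no spread between replicates and no depth stands behind a peak, and the identity of the cells cannot be checked from positions alone.

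Homologous recombination repairs broken DNA by copying an intact sister sequence, and it is most active while the genome is being replicated. Damage kinases detect the lesion, the MRE11, RAD50 and NBN complex trims the DNA end, and the BRCA proteins load the recombinase with help from its paralogues. The Fanconi core complex attaches ubiquitin to FANCD2 and FANCI when the strands are cross-linked and passes the lesion on to the same machinery. ETS1 belongs to a family of transcription factors that recognise DNA with the core letters GGAA.

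An ETS1 peak lay in the promoter window of 28 of the 29 repair genes (96.6%, 95% Wilson interval 82.8 to 99.4%), against 56.0% of all protein-coding genes. The exception was MRE11, which had no peak in its window, its body or its 50 kb flanks. The canonical TSS itself was inside a peak at 27 genes (93.1%, interval 78.0 to 98.1%), against 52.3% of all protein-coding genes, the other gene without one being CHEK1. Gene bodies held a peak at 3 genes (10.3%, interval 3.58 to 26.4%) where 21.3% of all genes had one, and 17 genes had a peak in the flanks (58.6%, interval 40.7 to 74.5%) where 69.1% of all genes did. With the 3 places together, 28 of the 29 genes had a peak, against 82.0% of all protein-coding genes. The intervals cover counting error only, and no test was made, since the genes were chosen with earlier results of these data known.

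**Figure D1:**
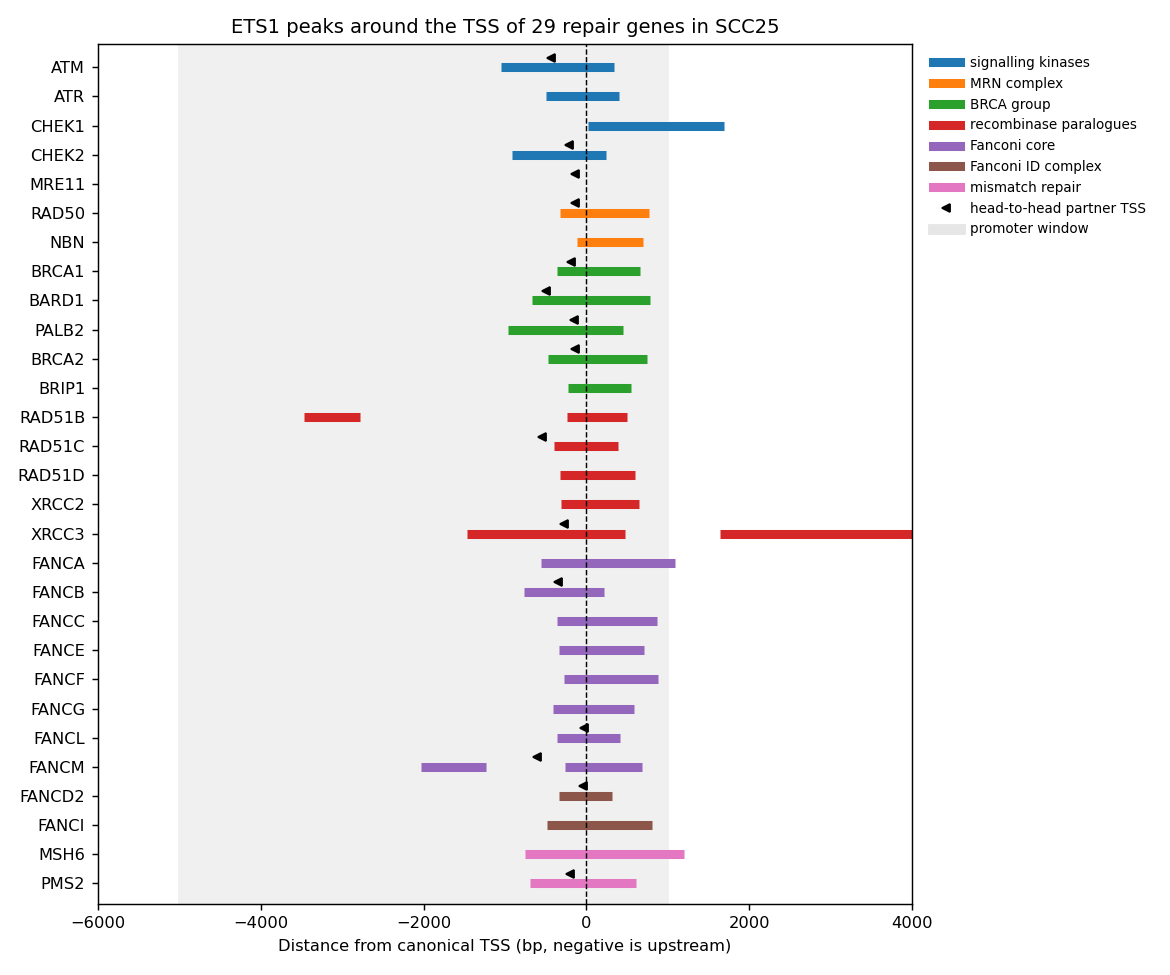
ETS1 peaks (bars, coloured by role) from 6 kb upstream to 4 kb downstream of the canonical TSS of each gene, with the promoter window in grey and the TSS of a head-to-head neighbour as a triangle above the bar. A bar crosses the dashed TSS line in 27 of the 29 rows, the CHEK1 bar starts just downstream of the line, and the MRE11 row is empty.

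The sequences that these peaks cover are shown first for the 4 members whose promoter peak held the longest ETS match searched, the 8 letters CCGGAAGT on either strand, which contain the 6 letters CGGAAG and with them the core GGAA. They are RAD50, PALB2, BRCA2 and FANCD2, and their 4 of 30 peaks (13.3%) stand beside 13.0% of all 10446 peaks in promoter windows of protein-coding genes. ATM, BRCA1 and MRE11 were added after their values were seen, ATM because its peak held the most matches of 6 letters, BRCA1 as the best known member, and MRE11 because it has the longest match and no peak. The stretch printed for ATM leaves out the matches 832 and 11 bp upstream and 107 bp downstream of its TSS. Each sequence is from the GRCh37 (hg19) reference, written 5′ to 3′ in the direction of the repair gene, and capitals mark a match of 6 or 8 letters, read as CGGAAG and CCGGAAGT or as their reverse complements CTTCCG and ACTTCCGG.
PALB2, chr16:23652643-23652786, minus strand, all 144 bases between its TSS region and the TSS of DCTN5: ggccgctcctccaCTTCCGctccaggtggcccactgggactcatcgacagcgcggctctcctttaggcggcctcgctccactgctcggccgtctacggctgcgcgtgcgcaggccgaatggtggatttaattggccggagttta
PALB2, chr16:23652774-23652803, minus strand, 30 bases around the match of 8 letters: agattccggctACTTCCGGccgctcctcca
BRCA2, chr13:32889501-32889641, plus strand, between its TSS region and the TSS of ZAR1L: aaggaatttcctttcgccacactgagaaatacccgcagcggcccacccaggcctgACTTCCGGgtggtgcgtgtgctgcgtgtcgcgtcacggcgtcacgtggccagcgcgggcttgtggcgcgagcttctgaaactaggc
RAD50, chr5:131892503-131892532, plus strand, the match farther from the TSS: ccagcaaagatCCGGAAGTccgctgcccct
RAD50, chr5:131892531-131892621, plus strand, the match nearer the TSS: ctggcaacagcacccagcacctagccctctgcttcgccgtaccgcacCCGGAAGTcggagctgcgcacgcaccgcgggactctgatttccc
FANCD2, chr3:10068040-10068069, plus strand: cccggccttccACTTCCGGcgCGGAAGttg
ATM, chr11:108093366-108093565, plus strand, the 200 bases next to the TSS of NPAT: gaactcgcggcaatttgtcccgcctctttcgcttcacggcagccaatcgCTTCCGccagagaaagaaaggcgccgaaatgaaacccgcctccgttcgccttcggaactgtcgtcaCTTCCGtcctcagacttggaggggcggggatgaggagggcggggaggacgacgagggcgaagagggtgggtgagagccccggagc
BRCA1, chr17:41277584-41277613, minus strand: agaattcttcctCTTCCGtctctttccttt
MRE11, chr11:94227052-94227144, minus strand, between its TSS region and the TSS of ANKRD49: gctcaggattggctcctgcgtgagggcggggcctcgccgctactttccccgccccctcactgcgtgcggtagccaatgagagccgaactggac
MRE11, chr11:94227150-94227179, minus strand: ccttgcatctcACTTCCGGgttcgtctcct

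All 4 damage kinase genes had 1 promoter peak each. ATM, the kinase that responds to broken DNA ends, had a peak of 1395 bp at chr11:108092739-108094133 with its midpoint 358 bp upstream of the TSS, where it also covered the TSS of NPAT, a regulator of histone genes. ATR, the kinase for stalled replication forks, had a peak of 897 bp at chr3:142297171-142298067, centred 44 bp upstream of its TSS. CHEK2, a kinase activated by ATM, had a peak of 1163 bp at chr22:29137564-29138726 whose midpoint was 337 bp upstream of its own TSS and 6 bp from a TSS of HSCB, so the peak was centred on the neighbour and reached over CHEK2. CHEK1, the kinase activated by ATR, had a peak of 1672 bp at chr11:125495079-125496750 that began 21 bp downstream of the canonical TSS, and its midpoint was in the first intron and 12 bp from another annotated TSS of CHEK1. Counting any annotated TSS, CHEK1 was covered too, and 28 genes had a TSS inside a peak, against 56.7% of all protein-coding genes.

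The complex that trims DNA ends was divided. RAD50, its ATPase, had a peak of 1086 bp at chr5:131892347-131893432 with the midpoint 220 bp downstream of the TSS. NBN, the subunit that recruits ATM, had a peak of 811 bp centred 287 bp downstream. MRE11, the nuclease, had its TSS at chr11:94227010 on the minus strand, and the nearest peak of the list was a peak of 1023 bp at chr11:94276871-94277893. The near edge of that peak was 49861 bp from the TSS and its midpoint was at -50372 bp (negative is upstream), just beyond the 50 kb limit, so it counts as a flanking peak when a 1 bp overlap is enough. On the downstream side of the promoter window, the peak nearest the limit was inside it, that of CHEK1 centred 856 bp downstream of the TSS, and the nearest outside was a body peak of XRCC3 centred 3007 bp downstream.

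All 5 genes of the BRCA group had the TSS inside their promoter peak. BRCA1, a ubiquitin ligase subunit that promotes recombination, had a peak of 1014 bp at chr17:41276729-41277742, centred 146 bp downstream of the TSS. BARD1, the RING partner of BRCA1, had a peak of 1455 bp at chr2:215673624-215675078, centred 56 bp downstream. PALB2, which bridges BRCA1 and BRCA2, had a peak of 1406 bp at chr16:23652187-23653592, centred 258 bp upstream and between PALB2 and DCTN5, a dynactin subunit gene. BRCA2, which loads the recombinase onto single strands, had a peak of 1222 bp at chr13:32889170-32890391, centred 135 bp downstream. BRIP1, a helicase that binds BRCA1, had a narrower peak of 778 bp at chr17:59940339-59941116, centred 162 bp downstream.

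The 5 recombinase paralogue genes, whose products form complexes that stabilise the recombinase filament, also all had the TSS inside a peak. RAD51B had a peak of 746 bp at chr14:68286252-68286997, centred 128 bp downstream of the TSS, and another of 687 bp at chr14:68283028-68283714. That other peak was centred 3125 bp upstream and 64 bp from the TSS of ZFYVE26, so it lay at the neighbour's promoter. RAD51C had a peak of 785 bp at chr17:56769565-56770349, centred 6 bp upstream of the TSS, the smallest distance among the 28 genes. RAD51D had a peak of 923 bp at chr17:33446284-33447206, centred 134 bp downstream. XRCC2 had a peak of 968 bp at chr7:152372577-152373544, centred 166 bp downstream. XRCC3, the partner of RAD51C, had the widest promoter peak of the paralogues, 1945 bp at chr14:104181309-104183253, centred 493 bp upstream and covering the TSS of ZFYVE21 as well.

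All 8 Fanconi core genes had the TSS inside a peak. FANCA had the widest of them, 1652 bp at chr16:89881967-89883618, and FANCL, the ubiquitin ligase of the complex, the narrowest, 765 bp at chr2:58468052-58468816. The midpoints were 263 bp and 26 bp downstream of these TSSs. FANCB (987 bp, chrX:14890972-14891958) was the only core gene with the midpoint upstream, by 274 bp, and its peak also covered the TSS of MOSPD2. FANCC had a peak of 1227 bp at chr9:98079124-98080350 and FANCE, which binds FANCD2, a peak of 1048 bp at chr6:35419776-35420823. FANCF, an intronless adaptor gene, had a peak of 1152 bp at chr11:22646496-22647647, centred 298 bp inside the gene and 16 bp from a TSS of GAS2. FANCG had a peak of 999 bp at chr9:35079350-35080348. FANCM, the DNA translocase that anchors the complex, had a peak of 943 bp at chr14:45604871-45605813 over its TSS and another of 806 bp at chr14:45603097-45603902, centred 185 bp from a TSS of FKBP3. RAD51B and FANCM were thus the 2 members with more than 1 promoter window peak, where 5.58% of all protein-coding genes had more than 1, and in both the additional peak was at a neighbour's TSS.

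The targets of the core complex and the mismatch genes completed the set. FANCD2 had the narrowest peak over a TSS of any member, 641 bp at chr3:10067790-10068430, centred 11 bp upstream. FANCI, its partner, had a peak of 1290 bp at chr15:89786725-89788014, centred 159 bp downstream. MSH6, which recognises mismatched bases, had the widest promoter peak of all members, 1954 bp at chr2:48009534-48011487, and PMS2, the endonuclease of mismatch repair, had a peak of 1308 bp at chr7:6048072-6049379. Neither mismatch gene had a peak in the body or the flanks.

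Most promoter window peaks of the members were narrower than the median promoter peak. All 30 were centred within 500 bp of an annotated TSS of some gene, as were 87.8% of the 10446 promoter window peaks of protein-coding genes. Of the 27 peaks over a canonical TSS, 18 were centred downstream and 9 upstream, from 493 bp upstream to 298 bp downstream, with a median of 134 bp downstream. These positions were not counted over all protein-coding genes, so they describe the members alone. The median width of the 30 peaks was 1031 bp (range 641 to 1954 bp), against a median of 1294 bp (quartiles 944 and 1781 bp) over the 10446 peaks in promoter windows of protein-coding genes and 969 bp over the whole list. Among the 27, 20 were narrower than that promoter median and 12 were under 1 kb. The median was 1246.5 bp over 64 peaks of 66 further repair genes, 1070.5 bp over 48 peaks at DNA replication genes and 1135 bp over 9 peaks at end joining genes. What the order of the list means is not given in the sources used here, and 66.7% of the members' peaks stood among its first 13485 entries, against 59.9% of all promoter peaks.

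**Figure D2:**
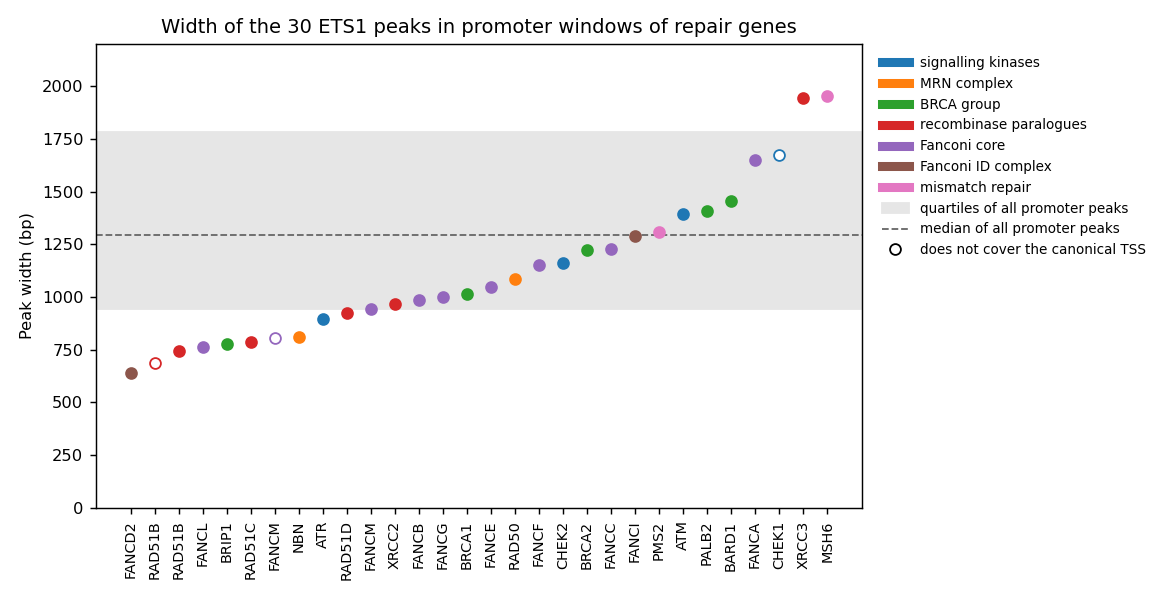
Width in bp of each of the 30 promoter window peaks, ordered from narrow to wide and coloured by role, with open circles for the 3 peaks that do not cover a canonical TSS. The dashed line is the median of all protein-coding promoter peaks (1294 bp) and the band their quartiles, and most members lie below the line, from FANCD2 at 641 bp to MSH6 at 1954 bp.

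Most of these genes share features of the promoter that the choice of genes did not use. A promoter was called CpG-rich when the bases from 250 upstream to 50 downstream of the TSS had a GC content of at least 0.55 and a ratio of observed to expected CpG of at least 0.65. This held for 22 of the 29 genes (75.9%) and for 59.4% of all protein-coding genes, and the remaining 7 were CHEK1, CHEK2, NBN, BRCA1, RAD51B, FANCF and FANCM. All 7 had a promoter peak (interval 64.6 to 100%), whereas 28.8% of the 8055 protein-coding genes that are not CpG-rich had one. Of the 7, NBN, BRCA1, RAD51B, FANCF and FANCM passed the ratio (1.13, 0.797, 0.703, 0.936 and 1.1) and missed only the GC content. CHEK2 passed the GC content (60.3%) and missed the ratio (0.609), and CHEK1 missed both. How many of the 8055 genes missed only 1 of the limits was not counted. Among all CpG-rich genes the share was 74.5%, and among the members 21 of 22.

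A head-to-head neighbour, meaning a TSS on the other strand at most 1 kb upstream, was annotated for 15 of the 29 genes (51.7%) and for 24.6% of all protein-coding genes. The distance between the paired start sites ran from 24 bp to 611 bp, 11 of the neighbours were protein-coding and 4 were lncRNA genes, among them NBR2, 187 bp from BRCA1. In 12 pairs 1 peak covered both start sites, namely ATM with NPAT, CHEK2 with HSCB, RAD50 with an annotated IL5 transcript, BRCA1 with NBR2, BARD1 with SNHG31, PALB2 with DCTN5, BRCA2 with ZAR1L, XRCC3 with ZFYVE21, FANCB with MOSPD2, PMS2 with AIMP2, and FANCL and FANCD2 with an unnamed lncRNA each. At such promoters the list does not tell which of the paired genes a peak belongs to. How often 1 peak covers both start sites was not counted over all genes with a neighbour, so the 12 pairs are only described. The neighbour's paired start site was outside any peak for RAD51C with TEX14 (547 bp) and FANCM with FKBP3 (611 bp), although another annotated FKBP3 start lay near the additional FANCM peak, and MRE11 and ANKRD49 (135 bp apart) were both uncovered. Of the 4885 protein-coding genes with such a neighbour 81.5% had a promoter peak, and of the 3985 that were also CpG-rich 85.8% had one (interval 84.6 to 86.8%). Of the 15 members with a neighbour 14 had a promoter peak (93.3%, interval 70.2 to 98.8%). Of the 12 that were also CpG-rich 11 had one (91.7%, interval 64.6 to 98.5%). In both of these types the share of all genes lies inside the members' interval. Promoter type thus moved with the presence of a peak over all genes. Its part in the count of 28 was not tested. The 14 members without a neighbour all had a promoter peak (interval 78.5 to 100%), where 47.6% of all genes without a neighbour did. Only upstream start sites count as neighbours, so FANCF is in this group although its peak is centred 16 bp from a TSS of GAS2. Among these 14 were 10 CpG-rich members (interval 72.25 to 100%). Of all 7816 CpG-rich genes without a neighbour, 68.7% had a promoter peak.

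**Figure D3:**
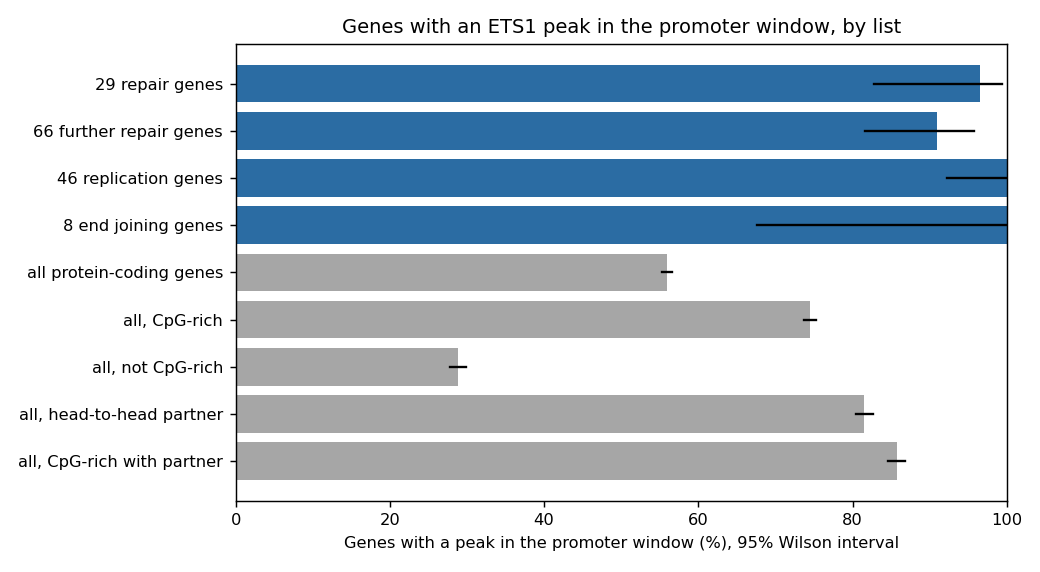
Share of genes in percent with an ETS1 peak in the promoter window, for the repair genes and 3 other lists (blue) and for all protein-coding genes by promoter type (grey), with 95% Wilson intervals as black lines. The repair genes stand at 96.6%, all protein-coding genes at 56.0%, and CpG-rich genes with a head-to-head neighbour at 85.8%.

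ETS letters occurred in every promoter peak of the set, but the core is common in any DNA. In the 200 bp around the midpoint, GGAA was found in 30 of 30 member peaks and in 86.5% of all protein-coding promoter peaks. The form with a C before and a G after the core, CGGAAG, was found in 9 of 30 (30.0%, interval 16.7 to 47.9%) against 20.7% of the 10446 promoter peaks, a share that lies inside the members' interval. In those 200 bp the mean GC content was 66.4% in the members' peaks and 67.1% in all promoter peaks. AGGAAG, the form with an A before, was found in 4 of 30 (13.3%, interval 5.31 to 29.7%) against 23.5%. Over whole peaks AGGAAG was in 24 of 30 (80.0%) against 80.05%. In 200 bp on the TSS it was at 27.6% of members, against 22.2% of genes with the TSS in a peak. The direction thus depended on the window. In the count on the TSS the members include CHEK1 and MRE11, whose canonical TSS is in no peak. Over whole peaks CGGAAG was present in 22 of 30 (73.3%, interval 55.6 to 85.8%) against 64.6%. The 8 peaks without it were those of CHEK1, FANCA, FANCE and FANCG and both peaks of RAD51B and of FANCM. ATM held 5 matches, XRCC3 and FANCC 4 each, and ATR, RAD50 and FANCI 3 each.

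The distance of these matches from the start site differed among members. The nearest CGGAAG was almost at the TSS in RAD51D (2 bp downstream), FANCI (4 bp downstream), FANCF (9 bp upstream), ATM (11 bp upstream) and FANCL (25 bp downstream). It was 42 bp upstream in ATR, 43 bp upstream in RAD51C and 217 bp upstream in BRCA1, and it lay 254 bp downstream in NBN and 353 bp downstream in BARD1. In CHEK2 the only match was 599 bp upstream, on the far side of the HSCB start site. These distances were not counted over all protein-coding genes, so they describe the members alone. Centred on the TSS rather than the peak, 200 bp held CGGAAG in 11 of the 29 genes (37.9%, interval 22.7 to 56.0%), against 19.99% of all protein-coding genes and 30.6% of those whose TSS was in a peak. In 600 bp on the TSS the count was 18 of 29 (62.1%, interval 44 to 77.3%), against 35.5% and 50.7%. The share at genes with the TSS in a peak fell inside the members' interval in both windows. The 29 members include CHEK1 and MRE11, whose canonical TSS is in no peak, so these sets are not fully alike.

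The match of 8 letters was rarer. In 600 bp on the TSS it was found at 5 of the 29 genes (17.2%, interval 7.60 to 34.6%), against 7.03% of all protein-coding genes and 12.2% of those with the TSS in a peak. MRE11, 1 of the 5, has its TSS in no peak, so the last comparison is not between like sets. RAD50 held the match at 152 and 88 bp upstream of the TSS, MRE11 at 154 bp, PALB2 at 157 bp, BRCA2 at 86 bp and FANCD2 at 67 bp. All 6 matches were thus upstream and within 200 bp, but side and distance were not counted over all genes. A window of 200 bp on the TSS held the match at 3 of the 29 members. Of the 1396 protein-coding genes with the match in 600 bp, 1010 had it in those 200 bp. In the sequences printed above, the BRCA2 match and the nearer RAD50 match lie between the paired start sites, whereas the PALB2 match spans the TSS of DCTN5 and the MRE11 match is beyond that of ANKRD49. Over all 1396 protein-coding genes with this match in 600 bp on the TSS, 90.6% had the TSS in a peak, and MRE11 was among the 131 that did not. Of the 7040 genes with CGGAAG in the same window 74.6% had the TSS in a peak. A match is a string of letters and does not by itself mark a bound site.

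**Figure D4:**
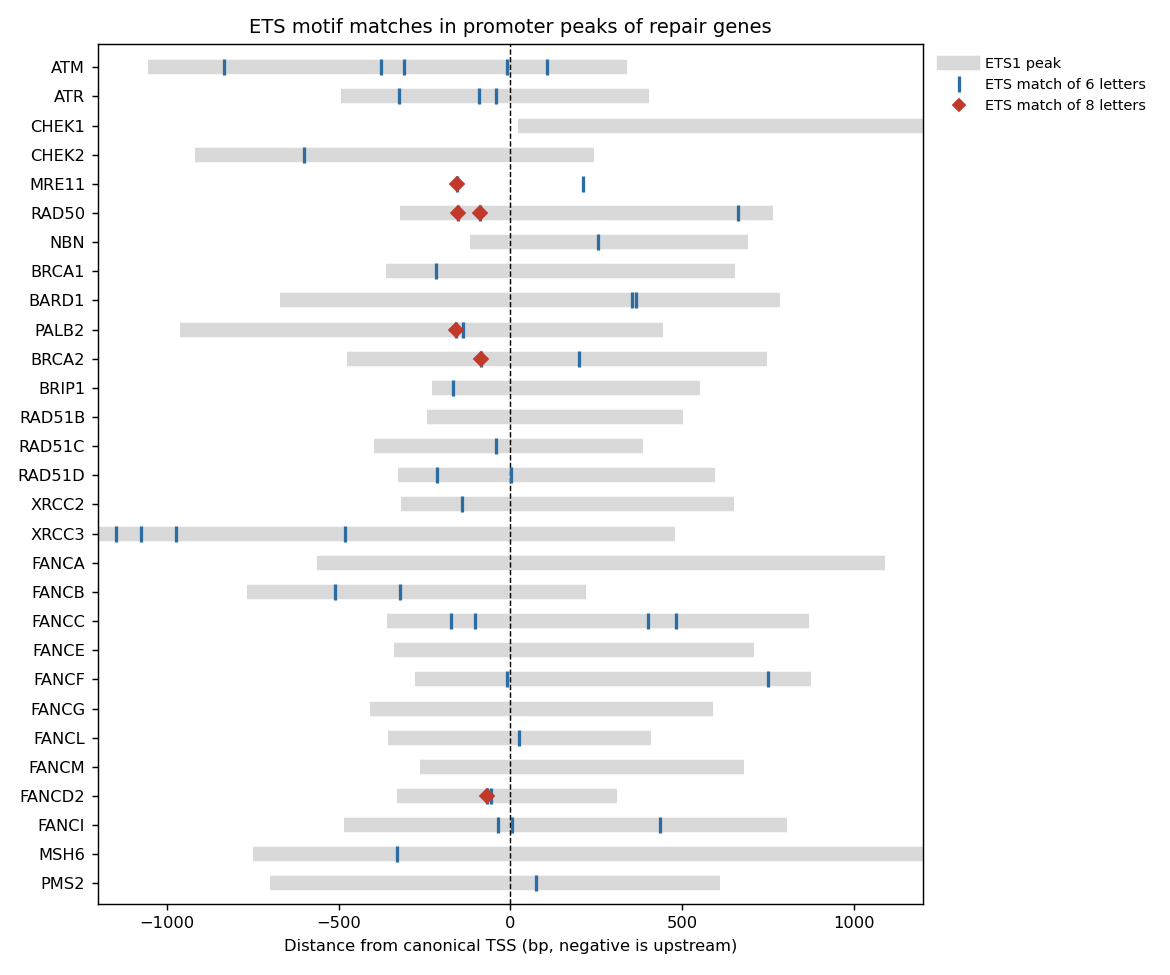
ETS1 peaks over the repair gene promoters (grey bars, distance in bp from the canonical TSS) with matches of 6 letters as blue lines and of 8 letters as red diamonds. For MRE11, which has no peak, matches within 500 bp of the TSS are drawn, and its match of 8 letters at 154 bp upstream stands level with those of RAD50 (152 bp) and PALB2 (157 bp).

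Motifs of other promoter factors were looked for on both strands in the same peaks, in the central 200 bp and over the whole peak. GGGCGG, the GC box, was found in the central 200 bp of 21 of 30 (70.0%, interval 52.1 to 83.3%) against 53.8% of all promoter peaks, but over whole peaks in 26 of 30 (86.7%) against 89.97%. In 200 bp on the TSS it was at 55.2% of members, against 67.3% of genes with the TSS in a peak, so the direction depended on the window. CCAAT was in 6 of 30 central windows against 16.1%, and in 22 of 30 whole peaks (73.3%) against 68.0%. In 200 bp on the TSS it was at 12 of 29 members (41.4%, interval 25.5 to 59.3%) against 24.6% of genes with the TSS in a peak. That share is just below the members' interval, and many motifs and windows were compared with no correction. For both motifs, the members counted on the TSS include CHEK1 and MRE11, whose canonical TSS is in no peak. TGACGTCA, the cyclic AMP response element, was in 1 of 30 central windows (3.33%) against 1.06%, and in 4 of 30 whole peaks (13.3%, interval 5.31 to 29.7%) against 4.72%. The whole-peak matches were at RAD51C (27 bp upstream of the TSS), XRCC2 (131 bp upstream), PMS2 (157 bp upstream) and in the FANCM peak near the start of FKBP3. TGAGTCA, bound by AP-1, was in 1 of 30 central windows (3.33%) against 2.81%, and in 2 of 30 whole peaks (6.67%) against 16.3%, at CHEK2 and in the RAD51B peak at ZFYVE26. AAGATGGC, bound by YY1, was in 0 of 30 central windows (interval up to 11.4%) against 2.69%, in 2 of 30 windows of 600 bp (6.67%) against 6.66%, and in 2 of 30 whole peaks against 10.4%. CGCATGCG, bound by NRF1, was in 0 of 30 in the central windows and whole peaks (interval up to 11.4%), against 1.26% and 5.51%. The members' peaks are narrower than the median promoter peak, and a whole-peak share moves with width.

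Body peaks were found at the longest members, RAD51B and FANCC, and at XRCC3, and all 9 were in introns. RAD51B, with 658315 bp the longest member, had 5 body peaks, all over 500 bp from any TSS. They were 416 bp and 326 bp wide in intron 7, 301 bp and 267 bp wide in intron 9, and 599 bp wide in intron 10. All were below the 969 bp median of the list. FANCC, with 218656 bp the next longest, had 3, of which 1 of 589 bp in intron 8 was 235 bp from another FANCC start site and 2 in intron 14 were far from any, at chr9:97866745-97868503 (1759 bp) and chr9:97864277-97864711 (435 bp). XRCC3 had 1 body peak, 2735 bp wide at chr14:104177414-104180148 in intron 2 and 340 bp from another XRCC3 start site. Of the 1233 protein-coding genes of at least 200 kb, 46.9% had a body peak, as had both members of that length. Of the 12786 genes from 10 to 200 kb, 24.9% had one, and of the 25 members of that length XRCC3 alone did. The median gene length was 64961 bp in the members and 23018.5 bp in all protein-coding genes.

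**Figure D5:**
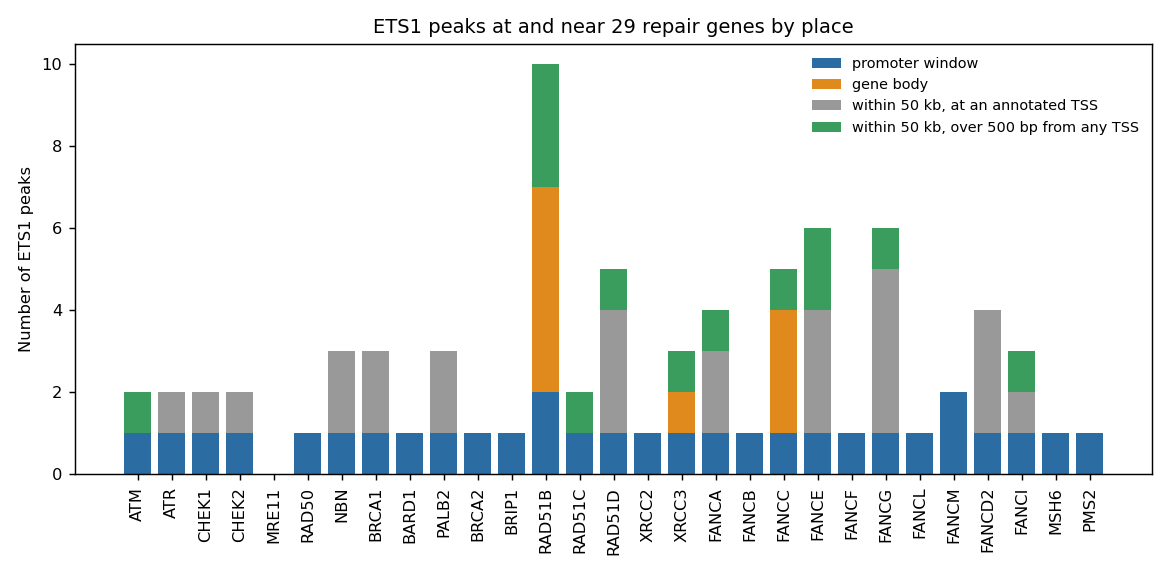
Number of ETS1 peaks at each repair gene by place, stacked, with flanking peaks divided by whether the midpoint was within 500 bp of an annotated TSS. RAD51B has the most, 10 peaks of which 5 are in the body, whereas 10 genes have their single promoter peak and nothing else.

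The flanks held 38 peaks at 17 genes, of which 25 were at start sites of other genes. That split was not counted over the flanking peaks of all protein-coding genes. FANCG, in a gene-dense stretch, had 5, at VCP, PIGO and STOML2 and at or near ATOSB. FANCE also had 5, among them peaks at RPL10A and at TEAD3. RAD51D had 4, of which 2 were at RFFL and 1 at NLE1. FANCD2 had 3, at EMC3, BRK1 and VHL, and BRCA1 had 2, at RPL27 and at NBR1. The 13 peaks away from any TSS were at 10 of the 29 genes (interval 19.9 to 52.7%), where 45.0% of all protein-coding genes had such a peak. RAD51B again had the most of these, 3 peaks of 769, 773 and 500 bp beyond the end of its canonical transcript. The nearest start site to each was another one annotated to RAD51B, 23301, 34311 and 24351 bp away. These 3 are therefore called flanking with respect to the canonical transcript only. The FANCC flank held a peak of 3253 bp at chr9:97852042-97855294, centred 5292 bp from the nearest start site, that of MIR3074. The 12 genes without a flanking peak were MRE11, RAD50, BARD1, BRCA2, BRIP1, XRCC2, FANCB, FANCF, FANCL, FANCM, MSH6 and PMS2.

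Reads with several genomic origins had been removed by the authors, so the uniqueness of the promoter sequences was counted. Only exact copies were counted, so a near copy with a differing letter does not lower these shares. At MRE11 99.6% of the 50-base stretches in the promoter window, and 100% of those within 500 bp of the TSS, occur once in the genome. Within 500 bp of the TSS the lowest share was 83.6%, at RAD51B, followed by 96.95% at PMS2, which has pseudogene copies, 98.4% at BRCA1 and 99.2% at FANCD2, and it was 100% at the other 25 genes. All 4 had a peak.

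Other genes of the same and neighbouring processes were counted in the same way. Of 66 further genes of recombination, Fanconi repair, checkpoint signalling and mismatch repair, 60 had a promoter peak (90.9%, interval 81.6 to 95.8%), 7 a body peak and 49 a flanking peak. The 6 without a promoter peak were RAD54B and WRN, which had no peak in any place, and DNA2, SLX1A, UBE2T and RPA3. SLX1A has a near-identical copy. Sequence uniqueness was counted for the 29 members only, so whether the copy bears on the missing peak was not tested. The most peaks in the promoter window and body together were at BABAM2, a subunit of a BRCA1 complex, with 4, and MDC1, a scaffold at DNA breaks, with 3, followed by 7 genes with 2 each. All 46 DNA replication genes examined had a promoter peak (interval 92.3 to 100%), as had all 8 genes of end joining, the other route of break repair (interval 67.6 to 100%). These intervals overlap that of the 29 genes.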

How the data were processed

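ETS1 ChIP-Seq in SCC25 cells comprised 3 samples of 50-base reads. The authors aligned reads to hg19 with Bowtie 1.1.1, keeping those with 1 locus, pooled them with SAMtools 1.3 (versions as in the submitters' processing notes), used MACS2 with a merged input as the control for peak calling, and selected reproducible peaks by IDR. They deposited 1 consensus list of start and end positions, with no score, summit or level per sample. Its depth per sample was not used here, so precision is given as 95% Wilson intervals on counts.

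Peaks were assigned by midpoint to canonical transcripts of GENCODE 44 mapped to GRCh37 (Python 3.11.15, pandas 2.3.3, numpy 2.4.6, scipy 1.17.1), and the assignment was tested on simulated data. Motifs were searched as exact letters on both strands of GRCh37, and exact copies of 50-base stretches were counted genome-wide (numba 0.67.0). Every member was named by role. Of the 66 further repair genes, those with no peak and the 5 with most peaks were to be named; ties at the fifth place are given as a count. The members, lists and sequences were chosen with earlier results of these data known. No comparison between groups was made, because no value belongs to 1 sample.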

Additional observations from a re-analysis of the deposited data

How the results depend on the processing

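Across 7 results, 37 alternative settings were computed, and 25 left the count within 1.5 times its value, or the median width inside its interval. With the first 13485 entries of the list alone, 18 members had a promoter peak and 17 had the TSS in a peak (36.4% and 34.1% of all protein-coding genes), and BRCA1, BARD1, BRCA2, BRIP1, RAD51C, XRCC2, XRCC3, FANCA, FANCB and PMS2 were lost. With peaks of at least the median width of 969 bp, the counts were 18 and 17 (43.5% and 41.6%), and the median width became 1258.5 bp by construction. Flanking peaks were at 11 members within 20 kb (46.9% of all genes), and at 10 when peaks near any TSS were left out (45.0%). CGGAAG was in 16 of 30 peaks in 600 bp (44.9% of all promoter peaks) and in 22 over the whole peak (64.6%), and in 200 bp the core alone was in 30 (86.5%), the 8 letters in 1 (4.33%) and the form with A in 4 (23.5%). In windows of 500 bp on each side of the TSS, 27 members had a peak against 46.8% of all genes. Using the span of the whole annotated gene, an alternative added after the data were seen, gave 4 members with a body peak, against 24.9% of all genes. No paired analysis was possible because the list pools the 3 samples, and for the same reason no replicate could be left out. The depth of each sample limits which weak peaks reach the list and was not used here, so the missing peak at MRE11 shows only that none passed the authors' threshold.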
